A study of Mus musculus with 12 samples.

Results

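Transcription factors that steer T cells into lineages other than Th9 were followed through Th9 cultures treated with a cyclic peptide, with an inhibitor of lipid synthesis, or with both. The members were the rows of the expression table that carry the symbols Tbx21, Eomes, Runx3, Zbtb7b, Runx1, Rora, Foxp3, Ikzf2 and Bcl6, which are 9 of the 32051 genes in the table, and the rule used the symbols alone. Naive CD4+ T cells from spleens of C57BL/6J mice were activated through CD3 and CD28 and polarized to Th9 cells with IL-4 at 10 ng/mL and TGF-beta at 1 ng/mL while IL-12 and IFN-gamma were blocked by antibodies. All 4 groups shared this culture. They received the vehicle DMSO, EpA at 10 uM, fatostatin at 5 uM, or EpA and fatostatin together (the combined group), with 3 libraries in each, and RNA was taken on day 4. EpA is endomelipeptide A, a cyclic peptide from an endophytic fungus, and fatostatin blocks the activation of the lipid synthesis factor SREBP1. The study calls its RNA-seq samples independent, but the labels and methods do not say whether the 3 libraries of a group came from separate mice or cultures, so p-values measure only the spread between these libraries, which may be technical.

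Each helper T cell lineage is held in place by a master transcription factor that turns on its own program and weakens the programs of its rivals. T-bet, encoded by Tbx21, drives Th1 cells, and its T-box relative Eomes drives cytotoxic genes in CD8+ T cells and NK cells. Runx3 silences Cd4 in CD8+ T cells, whereas ThPOK, encoded by Zbtb7b, keeps cells in the CD4+ lineage and restrains Runx3. Runx1 partners with many lineage factors, ROR alpha (Rora) contributes to Th17 cells, Foxp3 and Helios (Ikzf2) mark regulatory T cells, and Bcl6 drives follicular helper T cells. Th9 cells, defined by IL-9, have no single master factor of this kind and rely on IRF4, PU.1 and STAT6 downstream of IL-4 and TGF-beta.

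The culture label was checked first. Il9 averaged 54.6 ± 3.38 FPKM in DMSO (SD, n = 3), 640.0 ± 17.5 with EpA, 66.5 ± 5.22 with fatostatin and 821 ± 29.7 in the combined group. FPKM are fragments per kilobase of gene, scaled to the mapped fragments of the library, a level per length that can be compared between genes. Irf4 lay between 143 and 168 FPKM in all 12 libraries, and Cd4 between 78.1 and 92.2 FPKM. Spi1, which encodes PU.1, had 0 to 18 reads per library and was near the floor in this label check. The library totals implied by the FPKM value of 1 read were 36607313 to 44375908 reads, a 1.21-fold range, and no library stood apart by depth.

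Runx3 was the most abundant of the 9 factors and Eomes the least. Over the 12 libraries the mean levels were 22.1 FPKM for Runx3, 10.4 for Zbtb7b and 8.42 for Runx1. Tbx21 averaged 3.74 FPKM and Rora 3.34. Foxp3 averaged 1.45 FPKM, Ikzf2 1.06, Bcl6 0.922 and Eomes 0.145. Runx3 lay above 82.4% of the 13733 genes tested, and Eomes above 4.43% of them, with 9 to 48 reads in a library. The factors of the CD4 and CD8 choice were thus the abundant ones, and the master factors of the Th1, regulatory and follicular lineages were low.

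Neighbours in that order did not all differ beyond their spread. The ranges of Runx3, Zbtb7b and Runx1 did not overlap with one another over the 12 libraries, and Eomes lay below every other member. Tbx21 and Rora traded places with treatment. With EpA, Tbx21 (2.54 to 3.00 FPKM) lay below Rora (3.12 to 3.31), with fatostatin it lay above (4.67 to 5.11 against 3.04 to 3.65), and in DMSO and in the combined group the ranges overlapped. Ikzf2 and Bcl6 overlapped in every group but fatostatin, and Foxp3 and Ikzf2 overlapped only in the combined group.

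**Figure D1:**
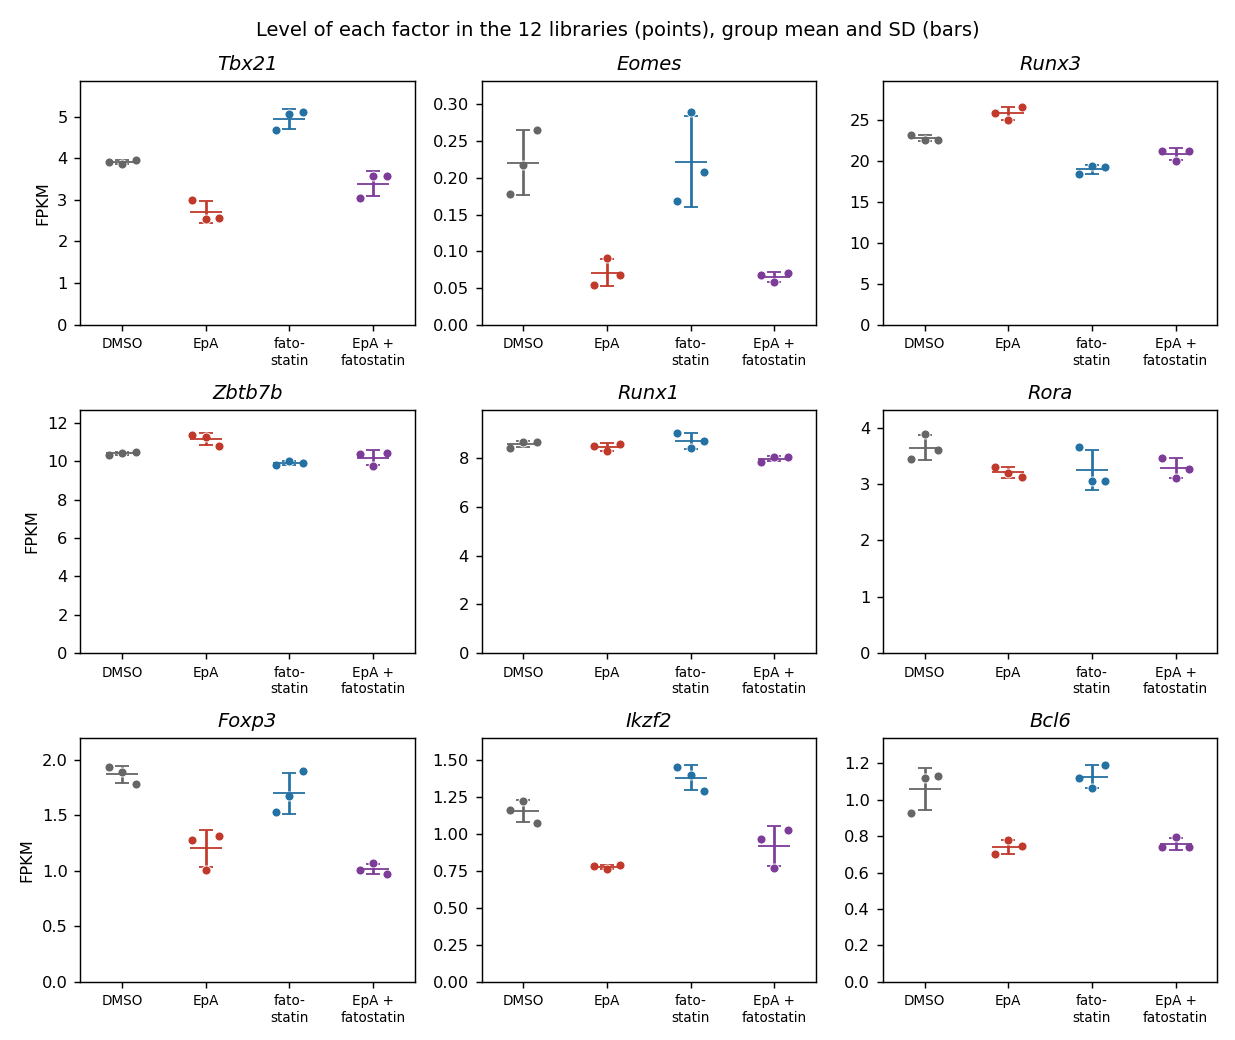
Level in FPKM (vertical axis, from 0) of each of the 9 factors in the 4 groups (horizontal axis), with 1 point per library and bars for the group mean and SD (n = 3). The points of Tbx21, Eomes, Foxp3, Ikzf2 and Bcl6 are lower in both groups that received EpA than in both that did not, while Runx3 is highest with EpA and lowest with fatostatin.

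EpA lowered the factors of the Th1, cytotoxic, regulatory and follicular lineages and raised Runx3. Against DMSO, 5 of the 9 factors were lower (Tbx21, Eomes, Foxp3, Bcl6 and Ikzf2) and 2 were higher (Runx3 and Zbtb7b) at an adjusted p below 0.05. Of all 13733 genes tested, 13.1% were lower and 14.3% higher by the same rule. The groups did not overlap for 8 of the 9 factors, the exception being Runx1, while 42.4% of all genes tested did not overlap. Eomes and Foxp3 also passed a fold of 1.5 on the log2(FPKM + 0.1) scale, which 1.94% of all genes did in the lower direction. Genes were tested if they averaged 0.1 FPKM or more over the 12 libraries, which Eomes reached only through the groups without EpA. Only Eomes passed the fold without DMSO replicate 1 or without EpA replicate 2, where Foxp3 was under it, and Tbx21 passed beside both without EpA replicate 1. Fold changes below are on that scale, which understates the change of low genes, and come from limma across all genes with Benjamini-Hochberg adjustment.

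Tbx21, the Th1 master factor, measured 3.91, 3.87 and 3.97 FPKM in DMSO and 3.00, 2.54 and 2.55 with EpA. It measured 4.67, 5.05 and 5.11 FPKM with fatostatin and 3.04, 3.58 and 3.56 in the combined group. The 4 groups were ordered with EpA lowest and fatostatin highest, and the combined group lay below every DMSO library. The log2 fold change of Tbx21 with EpA was -0.52 ± 0.0773 (SE; adjusted p = 0.000449). Fatostatin alone raised Tbx21 by 0.33 (adjusted p = 0.0150), a call that was lost without fatostatin replicate 2 or 3. The combined group differed from DMSO by -0.20 (95% interval -0.37 to -0.03), which did not pass the test (adjusted p = 0.0604) but did in 3 of 21 alternatives.

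Eomes, the T-box factor of cytotoxic lymphocytes, measured 0.178, 0.218 and 0.266 FPKM in DMSO and 0.0545, 0.0906 and 0.0682 with EpA. It measured 0.168, 0.290 and 0.208 FPKM with fatostatin and 0.0680, 0.0579 and 0.0705 in the combined group. Each library without EpA lay above each library with it, at 27 to 48 reads against 9 to 15. The DMSO mean was 3.1 times the EpA mean, whereas the fitted log2 fold change was -0.90 ± 0.209 (adjusted p = 0.00779). Fatostatin left no detectable difference at this depth, with an interval of -0.46 to 0.46 on the log2 scale. Even numbers made up 64.9% of the values between 1 and 40 reads in the table, and whether the mates of a pair were counted singly is not given in the sources used here.

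Foxp3, the master factor of regulatory T cells, measured 1.93, 1.89 and 1.78 FPKM in DMSO and 1.28, 1.01 and 1.32 with EpA. It measured 1.53, 1.67 and 1.89 FPKM with fatostatin and 1.01, 1.07 and 0.970 in the combined group. Both groups with EpA were low and did not overlap with the others. The log2 fold change with EpA was -0.60 ± 0.107 (adjusted p = 0.00152), and that of the combined group against DMSO was -0.82 (adjusted p = 0.000114). Foxp3 shares 2082 exon bases with 4 other annotated genes, 853 of them with the regulatory RNA Flicr on the same strand. Flicr averaged 0.334 ± 0.106 FPKM in DMSO and 0.398 ± 0.0530 with EpA, and passed the test in no comparison.

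Ikzf2, which encodes the Helios factor of regulatory T cells, measured 1.16, 1.23 and 1.08 FPKM in DMSO and 0.781, 0.765 and 0.789 with EpA. It measured 1.46, 1.40 and 1.29 FPKM with fatostatin and 0.967, 0.770 and 1.03 in the combined group. The EpA libraries were the tightest, and the fatostatin libraries lay above every DMSO library. The log2 fold change of Ikzf2 with EpA was -0.51 ± 0.105 (adjusted p = 0.00376). With fatostatin it was 0.24 (95% interval 0.01 to 0.47), which did not pass (adjusted p = 0.172) but did in voom on recovered reads (adjusted p = 0.0315). The combined group against DMSO gave -0.31 (adjusted p = 0.0421), a call that was lost in 14 of 21 alternatives.

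Bcl6, the repressor that defines follicular helper T cells, measured 0.926, 1.12 and 1.13 FPKM in DMSO and 0.702, 0.779 and 0.744 with EpA. It measured 1.12, 1.07 and 1.19 FPKM with fatostatin and 0.741, 0.797 and 0.739 in the combined group. All 6 libraries with EpA lay below all 6 without it. The log2 fold change with EpA was -0.46 ± 0.0977 (adjusted p = 0.00474), and with fatostatin it was 0.08 (95% interval -0.13 to 0.30).

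Runx3, the factor of the CD8+ and Th1 programs, measured 23.2, 22.6 and 22.6 FPKM in DMSO and 25.9, 25.0 and 26.6 with EpA. It measured 18.4, 19.4 and 19.3 FPKM with fatostatin and 21.3, 20.1 and 21.3 in the combined group. None of the 4 groups overlapped, and their order was EpA, DMSO, combined, fatostatin. The log2 fold change was 0.18 ± 0.0327 with EpA (adjusted p = 0.00179) and -0.26 ± 0.0327 with fatostatin (adjusted p = 0.000255). Each compound shifted Runx3 in the direction opposite to Tbx21, and both Runx3 calls held in all 21 alternatives.

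Zbtb7b, which encodes ThPOK, measured 10.3, 10.4 and 10.5 FPKM in DMSO and 11.4, 11.3 and 10.8 with EpA. It measured 9.81, 10.0 and 9.90 FPKM with fatostatin and 10.4, 9.75 and 10.4 in the combined group. The shifts were small: the log2 fold change with EpA was 0.09 ± 0.0322 (adjusted p = 0.0486), and this call was lost in 16 of 21 alternatives. Zbtb7b shares 116 exon bases with the opposite-strand gene Gm15417, and the strand setting of the counting is not given in the sources used here.

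Runx1 and Rora passed the test against DMSO with neither compound alone. Runx1, the broad partner of lineage factors, ranged from 7.85 to 9.02 FPKM over all 12 libraries, a 1.15-fold span. Its log2 fold change with EpA was -0.02 (95% interval -0.09 to 0.05). Rora, the ROR family member of Th17 cells, ranged from 3.04 to 3.88 FPKM. With EpA, Rora measured 3.31, 3.19 and 3.12 FPKM against 3.45, 3.88 and 3.60 in DMSO, a log2 fold change of -0.18 (95% interval -0.34 to -0.01) that did not pass the test (adjusted p = 0.106), although voom on recovered reads called it, as did the fit without fatostatin replicate 1.

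The promoters of Tbx21, Eomes and Bcl6 are shown because these members fell together with EpA. RefSeq held a promoter entry for 8 of the 9 factors, Ikzf2 being without one, and the stretches of Foxp3 lie in annotated exons and are not printed. Each stretch is the 250 bases before a start site on GRCm38.p6, written 5′ to 3′ on the strand of the gene. Tbx21 lies at chr11:97115332-97115581 on the minus strand and Eomes at chr9:118477939-118478188 on the plus strand. Bcl6 has a pair of start sites on the minus strand, with stretches at chr16:23988853-23989102 (upstream of the gene) and chr16:23981284-23981533 (in an intron). Capitals mark matches, on either strand, to any of 9 motifs. The Runx factors were searched for as TGTGGT, the T-box factors as AGGTGTGA and the factor AP-1 as TGANTCA. The STAT proteins were searched for as TTCNNNGAA and the NFAT proteins as GGAAAA. The E-box that SREBP and MYC share was searched for as CACGTG, and the SRE of SREBP as TCACNCCAC. The GC box was searched for as GGGCGG and the motif of the Gata factors as AGATAA.
Tbx21: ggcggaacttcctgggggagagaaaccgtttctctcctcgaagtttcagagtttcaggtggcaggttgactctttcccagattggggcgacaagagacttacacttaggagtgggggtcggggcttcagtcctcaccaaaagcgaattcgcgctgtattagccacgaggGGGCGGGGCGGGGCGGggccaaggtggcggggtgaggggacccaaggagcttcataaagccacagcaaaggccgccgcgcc
Eomes: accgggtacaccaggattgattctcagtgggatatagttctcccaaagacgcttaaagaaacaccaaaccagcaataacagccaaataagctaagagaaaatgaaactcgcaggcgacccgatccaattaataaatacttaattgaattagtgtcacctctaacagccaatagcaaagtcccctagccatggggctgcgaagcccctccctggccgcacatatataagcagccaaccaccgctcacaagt
Bcl6 upstream start: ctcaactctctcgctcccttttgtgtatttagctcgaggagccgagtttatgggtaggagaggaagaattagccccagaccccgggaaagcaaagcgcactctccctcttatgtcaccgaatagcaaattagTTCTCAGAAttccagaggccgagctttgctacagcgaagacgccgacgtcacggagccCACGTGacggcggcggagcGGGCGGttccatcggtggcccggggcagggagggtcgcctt
Bcl6 intronic start: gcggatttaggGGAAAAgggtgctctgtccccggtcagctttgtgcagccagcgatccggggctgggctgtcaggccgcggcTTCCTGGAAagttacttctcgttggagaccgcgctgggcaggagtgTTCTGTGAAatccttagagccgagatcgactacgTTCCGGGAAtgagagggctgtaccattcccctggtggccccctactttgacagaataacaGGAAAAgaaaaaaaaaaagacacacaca

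The Tbx21 stretch held 3 GC boxes in a row, beginning 81, 76 and 71 bases before the start site and overlapping by their end bases. A GC box was present before the first listed start site of 32.9% of 27018 genes, and 3 or more were present in 8.398%. The intronic Bcl6 stretch held 3 STAT motifs, beginning 168, 122 and 88 bases before the start, and a pair of NFAT motifs. At least 1 STAT motif was found before 7.2% of first listed start sites, and 3 or more before 4 of the 27018. The upstream Bcl6 stretch held 1 STAT motif, 1 GC box and 1 E-box of SREBP and MYC, a motif found before 6.0% of start sites. The Eomes stretch held none of the 9 motifs. These are matches of letters, and binding at them was not measured.

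With fatostatin present, EpA again lowered the Th1, cytotoxic, regulatory and follicular factors and raised Runx3. Against fatostatin alone, the combined group was lower for 6 factors (Tbx21, Eomes, Foxp3, Bcl6, Ikzf2 and Runx1) and higher for Runx3, while 13.3% of all genes tested were lower and 16.2% higher, a split of 2221 higher and 1830 lower that became 1981 and 2087 under median ratio scaling. These libraries are not those of the comparison of EpA with DMSO. The log2 fold changes were -0.53 for Tbx21 (adjusted p = 0.000351) and -0.94 for Eomes (adjusted p = 0.00554). They were -0.68 for Foxp3 (adjusted p = 0.000582), -0.51 for Bcl6 (adjusted p = 0.00219) and -0.54 for Ikzf2 (adjusted p = 0.00242). Runx3 rose by 0.13 (adjusted p = 0.00980), and Runx1 fell by 0.12 on the log2 scale (adjusted p = 0.0141). This call of Runx1 was lost in 2 of 21 alternatives.

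The difference between the EpA effect with and without fatostatin was tested in the same fit. None of the 9 factors passed in limma at an adjusted p below 0.05, nor in voom on recovered reads, and 0.0437% of all genes did, which is 6 of 13733. At an unadjusted p below 0.05, 1 of the 9 factors was called, Runx1 (-0.10 on the log2 scale, adjusted p = 0.626), beside 7.89% of all genes tested. By the same rule 2 were called in voom, Runx1 and Rora, and none in 11 of the 20 alternatives. The intervals bound the difference at -0.25 to 0.23 for Tbx21, -0.41 to 0.25 for Foxp3 and -0.69 to 0.61 for Eomes. The interval was -0.15 to 0.05 for Runx3 and widest for Eomes, the member with the fewest reads.

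The factors called with fatostatin against DMSO were Tbx21 and Runx3, in opposite directions. Of the 9, 1 was higher (Tbx21) and 1 lower (Runx3), beside 7.69% of all genes tested higher and 6.31% lower. With 9 factors, these counts lie near the shares of all genes. Against EpA, the combined group was higher for Tbx21 (0.32, adjusted p = 0.0159) and lower for Runx3 (-0.31, adjusted p = 6.82e-05) and Zbtb7b (-0.13, adjusted p = 0.0197), beside 9.22% of all genes higher and 6.79% lower. The all-gene split of 1266 higher and 933 lower became 1090 and 1252 under median ratio scaling. In this comparison the call of Tbx21 was lost in 5 of 21 alternatives, which were leaving out EpA replicate 2 or 3 or combined replicate 2 or 3 and fitting only the groups compared. That of Zbtb7b was lost in 4, without EpA replicate 1 or 2 or combined replicate 2 and with only the groups compared. Without replicate 2 of either group, 1 of 9 was called. Foxp3, Ikzf2, Bcl6, Eomes and Rora did not pass with fatostatin in either setting, except that against DMSO voom called Ikzf2 and the fit without fatostatin replicate 1 called Rora.

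Given together, the compounds left 6 of the 9 factors below DMSO and none above. They were Eomes (-0.95, adjusted p = 0.00438), Foxp3, Bcl6 (-0.43, adjusted p = 0.00520), Ikzf2, Runx1 (-0.10, adjusted p = 0.0285) and Runx3 (-0.13, adjusted p = 0.00983). Of all genes tested, 15.8% were lower and 19.7% higher in this comparison, a split of 2706 higher and 2171 lower that became 2385 and 2497 under median ratio scaling. Eomes and Foxp3 passed a fold of 1.5, which 2.02% of all genes did in the lower direction. With a pseudocount of 1, no member passed that fold, and 118 of all genes were lower by it, against 277. The count of members past the test lay between 4 and 7 over the 21 alternatives, the call of Runx1 being lost in 5 of them and that of Ikzf2 in 14. Runx3 lay below DMSO in the combined group although EpA alone raised it. This comparison shares its DMSO libraries with both single treatments.

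**Figure D2:**
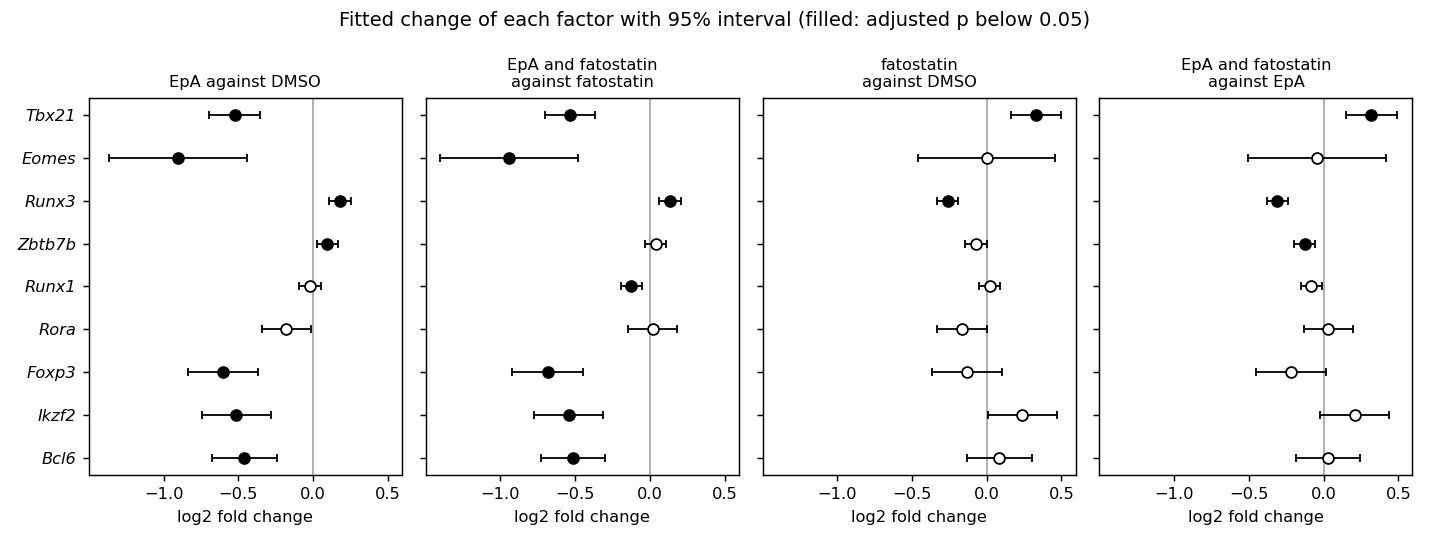
Fitted log2 fold change on the log2(FPKM + 0.1) scale (horizontal axis) of each factor (rows) in 4 comparisons (panels), with 95% intervals; filled points had an adjusted p below 0.05. The panels on the left show the EpA effect without and with fatostatin, with Eomes at -0.90 and -0.94; the panels on the right show the fatostatin effect without and with EpA, with Runx3 at -0.26 and -0.31.

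Ratios between opposing factors are given as a description, without a test. The ratio of Zbtb7b to Runx3, the pair that sets CD4 against CD8 fate, was 0.457 ± 0.0101 in DMSO and 0.431 ± 0.0235 with EpA, where the ranges overlapped. It was 0.521 ± 0.0106 with fatostatin and 0.488 ± 0.00183 in the combined group, both above every DMSO library. Runx1 to Runx3 was 0.376 ± 0.0122 in DMSO, 0.327 ± 0.00467 with EpA and 0.458 ± 0.0292 with fatostatin. These 3 groups did not overlap, and Runx1 itself passed the test against DMSO with neither compound alone.

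Foxp3 to Rora, which sets a regulatory factor against a Th17 factor, was 0.514 ± 0.0407 in DMSO, 0.375 ± 0.0542 with EpA and 0.310 ± 0.0288 in the combined group. Tbx21 to Gata3, the Th2 master factor, was 0.0778 ± 0.00278 in DMSO, 0.0581 ± 0.00535 with EpA and 0.0886 ± 0.00209 with fatostatin. Gata3 was over 10 times as abundant as Tbx21 in each group and itself moved from 50.4 ± 2.40 to 46.4 ± 1.24 FPKM with EpA (adjusted p = 0.0440). Bcl6 to its antagonist Prdm1 was 1.01 ± 0.179 in DMSO and 1.22 ± 0.152 with EpA, and these ranges overlapped. Prdm1 fell with EpA as Bcl6 did, from 1.06 ± 0.0911 to 0.614 ± 0.0611 FPKM (adjusted p = 0.000782).

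**Figure D3:**
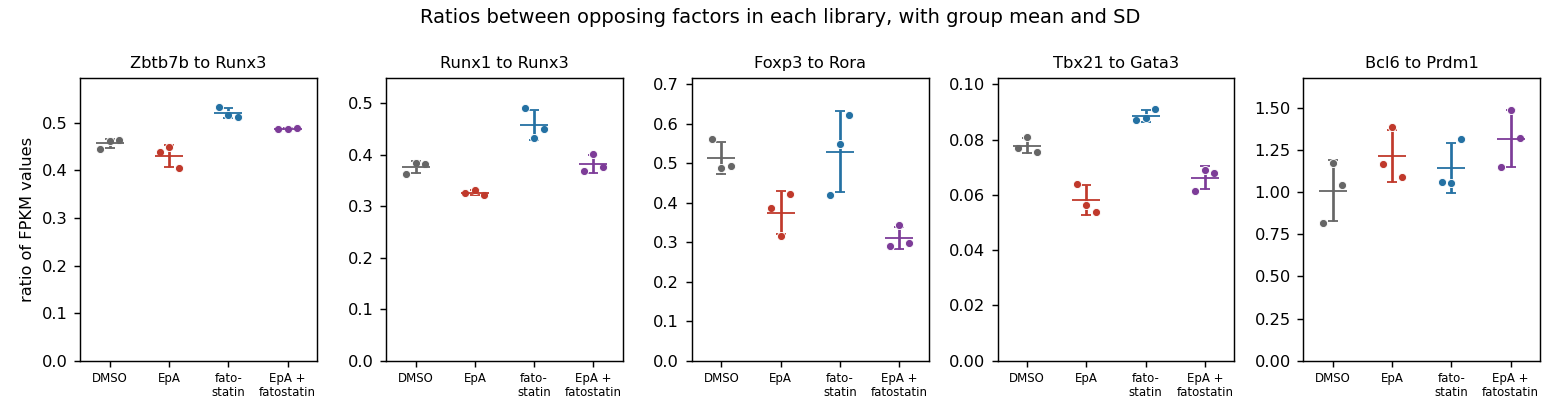
Ratio of FPKM values (vertical axis, from 0) of 5 pairs of opposing factors in the 4 groups (horizontal axis), with 1 point per library and bars for the mean and SD (n = 3). Tbx21 to Gata3 is lowest with EpA (0.0581) and highest with fatostatin (0.0886), and Bcl6 to Prdm1 overlaps between all groups.

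The genes that work with the factors were read from 8 lists of textbook genes that leave out the 9 members. Of the 20 tested genes of the Th1 and cytotoxic program, 8 were lower and 1 higher with EpA, beside 13.1% and 14.3% of all genes tested, with a median log2 fold change of -0.35 against 0.0023 over all genes. These shares of all genes apply to each list below with EpA, and no test was run on a list as a whole. Cxcr3, the chemokine receptor induced by T-bet, fell from 7.03 ± 0.525 to 2.60 ± 0.381 FPKM (log2 fold change -1.41, adjusted p = 1.67e-06). Nkg7 and Ctsw, granule genes of cytotoxic cells, fell from 8.02 to 4.53 and from 35.2 to 22.0 FPKM. Stat4, the signal transducer of IL-12, fell from 10.3 to 6.44 FPKM. Gzmb, which encodes granzyme B, was 147 ± 3.42 FPKM in DMSO and 117 ± 0.594 with EpA (log2 fold change -0.33, adjusted p = 6.21e-07). Ifng averaged 2.20 ± 0.292 FPKM in DMSO and 1.76 ± 0.334 with EpA, where the groups overlapped (adjusted p = 0.0813). Ifng and Gzmb were chosen after their values were seen. With fatostatin, 0 of the 20 were higher and 3 lower, beside 7.69% and 6.31% of all genes, with a median of 0.06 against 0.0053 over all genes. Gzma, another granzyme gene, fell from 35.7 to 25.2 FPKM with fatostatin (adjusted p = 0.00123 in limma) and Gzmb from 147 to 140, while Tbx21 was higher there.

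Of the 15 tested genes of the Th17 list, 11 were higher and 1 lower with EpA, beside 14.3% and 13.1% of all genes, with a median of 0.34. Il21 rose from 1.27 to 3.28 FPKM, Hif1a from 92.8 to 122 and Batf from 75.5 to 95.3. Il17a stayed near the floor at 8 to 24 reads per library, averaging 0.251 FPKM in DMSO and 0.462 with EpA (adjusted p = 0.0740). Some of these genes, such as Batf and Hif1a, are broad activation factors that many T cells use.

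The regulatory list split, with 9 of 21 tested genes higher, 7 lower and a median of -0.03. Entpd1, which encodes the ectoenzyme CD39, fell from 2.46 to 0.911 FPKM, and Itgae, the CD103 integrin, from 20.0 to 8.53 FPKM (log2 fold change -1.22, adjusted p = 4.36e-10). The inhibitory receptor Tigit fell from 10.5 to 6.53 FPKM, while the orphan receptor Gpr83 rose from 1.37 to 3.32 FPKM. With fatostatin, 5 of the 21 were higher and 3 lower, beside 7.69% and 6.31% of all genes tested, with a median of 0.04 against 0.0053 over all genes. Il10, the regulatory cytokine, fell from 110.1 ± 0.875 to 53.7 ± 1.62 FPKM with fatostatin (log2 fold change -1.04, adjusted p = 2.89e-10), while Foxp3 did not pass there.

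Of the 20 follicular helper genes, 10 were lower and 4 higher with EpA, with a median of -0.18. Pou2af1, a coactivator, fell from 9.79 to 4.74 FPKM, Id3, an inhibitor of E proteins, from 9.39 to 4.67, and the receptor Slamf6 from 1.76 to 0.887. Il21, which the Th17 list also holds, rose. Cxcr5, the homing receptor that defines follicular cells, had 6 to 30 reads per library and passed in no comparison. Of the 12 genes that Bcl6 represses or that oppose it, 8 were lower and 2 higher with EpA, with a median of -0.12. Klf2 fell from 2.86 to 1.24 FPKM and Il7r from 15.3 to 10.7, while Il2ra, the high-affinity IL-2 receptor chain, rose from 693 to 876 FPKM. With fatostatin, 7 of the 20 follicular genes were higher and 5 lower, beside 7.69% and 6.31% of all genes, among them P2rx7 (5.92 to 9.10 FPKM) and Btla (5.47 to 8.32) higher and Tox2 (1.48 to 0.875) lower.

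Of 19 genes of the CD4 and CD8 choice, 12 were lower and 2 higher with EpA, with a median of -0.08. Cd8a, silenced in CD4+ cells, fell from 1.81 ± 0.182 to 0.802 ± 0.0328 FPKM (log2 fold change -1.08, adjusted p = 2.85e-05) and was 0.491 ± 0.0767 in the combined group. Cd8b1, its partner chain, averaged 7.60 ± 0.426 FPKM in DMSO and 7.47 ± 0.404 with EpA (adjusted p = 0.877). Cbfb, the shared binding partner of the Runx factors, was 83.1 ± 0.695 FPKM in DMSO and 80.0 ± 0.982 with EpA, a log2 fold change of -0.05 (adjusted p = 0.0399). It was named after its values were seen. Myb fell from 6.28 to 4.86 FPKM, Tcf12 from 4.06 to 3.34 and Ets1 from 96.8 to 85.5. With fatostatin, 7 of the 19 were higher and 5 lower, beside 7.69% and 6.31% of all genes, with Lef1 rising from 20.8 to 25.2 FPKM and Runx2 falling from 2.98 to 2.24.

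Of 10 tested paralogs of the factors, 3 were higher and 3 lower with EpA. Ikzf3 and Ikzf1, the Aiolos and Ikaros relatives of Helios, fell from 25.4 to 17.5 and from 79.3 to 67.8 FPKM, alongside Ikzf2. With fatostatin Ikzf3 also fell, to 19.65 FPKM (log2 fold change -0.37, adjusted p = 0.000667), while Ikzf2 lay above DMSO without passing the test. Foxp1, a relative of Foxp3, fell from 12.1 to 10.6 FPKM with EpA and rose to 14.1 with fatostatin. In the list of Th9 and Th2 genes, 6 of 16 were higher and 3 lower with EpA, with Il13 rising from 8.82 to 15.95 FPKM and Bhlhe40 from 27.3 to 43.8. Smad3, the mediator of TGF-beta, rose from 6.58 to 9.59 FPKM with fatostatin and Maf fell from 16.7 to 11.9.

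**Figure D4:**
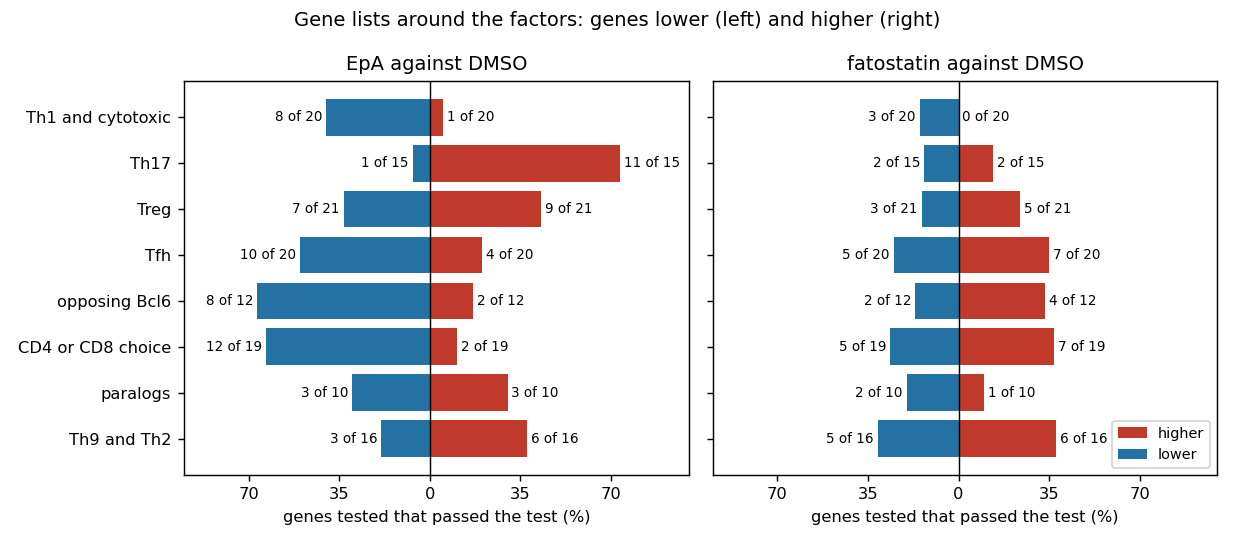
Share of the tested genes of each list (rows) that were lower (blue, left) or higher (red, right) at an adjusted p below 0.05, in percent (horizontal axis), with the counts beside the bars, for EpA against DMSO and fatostatin against DMSO. With EpA the Th1 and cytotoxic list has 8 of 20 lower and the Th17 list has 11 of 15 higher.

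The genes whose pattern over the 12 libraries was most like that of Eomes were Epas1 (Pearson r = 0.9687), Elk3 (0.9669) and Mboat1 (0.9635). For Foxp3 they were Dnajb11 (0.9813), the gamma chain segment Trgv4 (0.9804) and Apeh (0.9803). These r values are of log2(FPKM + 0.1) among the 10298 genes that averaged 1 FPKM or more, and they describe libraries that share 4 treatments. Epas1, which encodes HIF-2 alpha, was 15.9 ± 0.838 FPKM in DMSO and 8.26 ± 0.221 with EpA.

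Markers of other cells moved with some of these results, and in bulk RNA fewer cells of a type and less RNA per cell cannot be told apart. The cultures began from spleen cells purified with an isolation kit for naive CD4+ T cells, a step meant to leave out NK, B, CD8+ and myeloid cells. The summed level of 6 NK and innate lymphoid markers was 1.62 to 1.72 FPKM in DMSO, 1.00 to 1.14 with EpA, 1.30 to 1.47 with fatostatin and 0.772 to 0.835 in the combined group. Of the 2 tested, Klrk1 was lower with EpA (1.41 ± 0.0955 to 0.737 ± 0.0687 FPKM, adjusted p = 6.79e-05) and Kit was not, while the defining gene Ncr1 had 0 to 4 reads and Klra8 0 to 2. With EpA this sum was lower, as were Tbx21, Eomes and Foxp3, whereas with fatostatin the sum was lower and Tbx21 was higher, and its part in those results was not tested. The sum of 2 CD8 markers was 8.71 to 9.80 FPKM in DMSO and 7.85 to 8.57 with EpA, with the fall in Cd8a and not in Cd8b1. The sum of 6 B cell markers, most of it Cd79b, was 6.00 to 7.95 FPKM in DMSO, 5.22 to 6.27 with EpA and 7.58 to 8.71 with fatostatin. Of the 3 tested, 1 was lower with EpA and none was called with fatostatin against DMSO. Its part in the level of Bcl6, which B cells also express, was not tested. The sum of 8 myeloid markers, 3 of them tested, was 1.57 to 1.77 FPKM in DMSO, 1.51 to 1.97 with EpA, 1.86 to 2.64 with fatostatin and 2.16 to 3.12 in the combined group. Of the 3, 1 was higher with EpA, 1 with fatostatin and 2 in the combined group against DMSO, and their part in the results was not tested. Trgv4, a segment of the gamma delta receptor, was named for its likeness to Foxp3. It was 5.34 ± 0.818 FPKM in DMSO and 2.79 ± 0.652 with EpA (adjusted p = 0.00122), and its part in the level of Foxp3 was not tested. Of 4 listed gamma delta T cell markers only Sox13 was in the table, at 0.216 to 0.304 FPKM in DMSO and 0.215 to 0.373 with EpA. Sox13 passed the test in no comparison. The 9 T cell markers summed to 845 to 851 FPKM in DMSO and 802 to 804 with EpA.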

How the data were processed

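RNA of Th9 cells was sequenced in read pairs, as 12 libraries. Per the methods and the submitters' processing notes, reads went through adapter trimming by Trim Galore, HISAT2 alignment on GRCm38 and featureCounts before the authors scaled them to FPKM, and the authors' own test was DESeq2 on counts (adjusted p below 0.05, fold 1.5 or more). The annotation release and strand setting are not given in the sources used here. The deposited FPKM table held 32352 lines, of which 301 repeated a gene with equal values, leaving 32051 genes. Values came out as whole reads (within 0.1) for 98.5% to 98.7% of genes below 1000 reads, using GENCODE gene lengths.

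Here, the 13733 genes averaging 0.1 FPKM or more were tested with limma 3.58.1 in R 4.3.3, with an intensity trend on log2(FPKM + 0.1), 1 mean per group and all 12 libraries in the fit, and Benjamini-Hochberg adjustment over all genes tested. A 3 against 3 exact permutation test cannot go below p = 0.1, so none was used. No replicate pair agreed within sampling noise. Replicate numbers in the labels did not pair the samples: deviations of same-numbered libraries correlated at -0.0472 to 0.0744. Alternatives were other pseudocounts, minima, scalings and groups in the fit, the replicate block, voom of limma on recovered reads, and leaving out each library.

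The members and lists were chosen with earlier results of these data known. Named genes were the 9 members, up to 4 genes per list with the largest change past the test averaging 1 FPKM or more without overlap of the groups, in EpA or fatostatin against DMSO, the defining genes of a list, the partners in the ratios, and the 3 genes most like each member that passed a 1.5-fold change. Concentrations of EpA and fatostatin are those of the methods. A gene that this rule names is not reported here.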

Additional observations from a re-analysis of the deposited data

How the results depend on the processing

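Of the 25 member results past the test, none reversed in 519 alternatives, 471 stayed past the threshold and 48 did not, in 7 results. The EpA calls of Tbx21, Eomes, Foxp3, Bcl6, Ikzf2 and Runx3 against DMSO held in each alternative that tested them; a minimum of 1 FPKM left out Eomes and Bcl6. The count of members past the test moved from 2 to 1 for fatostatin against DMSO (1 to 3 over the libraries left out in turn, with 1 without fatostatin replicate 2 or 3). For the combined group against EpA it moved from 3 to 1 with only the groups compared, and lay between 1 and 3 over the libraries left out. With a pseudocount of 1, no member passed a fold of 1.5 with EpA against DMSO, and over all genes 58 were higher and 83 lower by that fold, against 198 and 266, or 78 and 138 with a minimum of 1 FPKM. Scaling moved the median of all genes by at most 0.0195 on the log2 scale.

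With the replicate block, members past the test were 1 higher and 5 lower with EpA, 1 and 1 with fatostatin, 1 and 2 for the combined group against EpA, 1 and 6 against fatostatin, and 0 and 5 against DMSO. In the same order, 1913 and 1747, 982 and 828, 1197 and 897, 2159 and 1798, and 2645 and 2146 of all 13733 genes tested were higher and lower. The numbers did not pair the libraries: 5 of 12 libraries correlated best with their own number.

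Reversals occurred in 11 of the 29 results that did not pass, and in 8 alternatives one of these results passed. Eomes with fatostatin against DMSO turned to 0.001282 with a pseudocount of 1 and 0.002391 with TPM scaling. Over the libraries left out in turn it ranged from -0.1478 to 0.1221, Bcl6 from -0.001361 to 0.1314 and Runx1 from -0.005601 to 0.04588. For the combined group against EpA, Eomes ranged from -0.1149 to 0.03682, Rora from -0.007506 to 0.06874 and Bcl6 from -0.00424 to 0.06228, and Rora against fatostatin from -0.02444 to 0.1019. The difference between the EpA effects ranged from -0.04959 to 0.066 for Tbx21, -0.1659 to 0.104 for Eomes, -0.1012 to 0.03161 for Bcl6 and -0.1052 to 0.08144 for Ikzf2.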
